A study of Homo sapiens with 6 samples.

Results

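The classical protein tyrosine phosphatases are described here as the genes of the deposited count table whose symbol is PTPN followed by a number or PTPR followed by a letter and at most 1 digit. The rule found 37 of the 19672 genes listed, of which 20 carry PTPR symbols (receptor type) and 17 carry PTPN symbols (non-receptor type). They were measured by mRNA sequencing in SW620, an established human colorectal cancer cell line, in 3 groups of 2 libraries each. The scramble group carried a lentiviral short hairpin RNA that targets no gene. The groups C3 and C6 carried lentiviral hairpins against DKC1, the gene of dyskerin, a pseudouridine synthase of box H/ACA ribonucleoproteins and part of telomerase. All 3 groups were stable lines made with pLV vectors, all were kept under puromycin, none had another treatment, and all have the same batch label. The design text names a pair of DKC1 hairpins, but the sources used here do not tie either to C3 or to C6, so a difference between C3 and C6 is one between lines. The genotype label of C3 replicate 1 reads "Control" while its title names it a C3 knockdown, and the title was followed. The titles call the libraries biological replicates without saying that they came from separate cultures, so the p-values below measure the spread between these libraries.

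Protein tyrosine phosphatases remove phosphate from tyrosine residues with a catalytic cysteine and so oppose, and in some cases switch on, tyrosine kinases. Receptor types span the membrane and many carry adhesion-like ectodomains that meet the same molecule, a proteoglycan or a secreted factor outside the cell. Non-receptor types are placed in the cell by SH2, FERM, PDZ, PEST or other domains. In intestinal epithelium they are known for setting the phosphorylation of growth factor receptors, Src family kinases and the catenins at cell junctions.

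Total counts ran from 26077966 to 31021000 per library, and levels are given as CPM, counts scaled to the library size. DKC1 itself stood at 319.7 and 315 CPM in the scramble libraries, 144 and 149 in C3 and 70.3 and 67.1 in C6, that is at 46.3% of the scramble mean in C3 and 21.7% in C6. C3 replicate 1, the library with the conflicting label, lay beside C3 replicate 2. Of 11 epithelial markers all but CDX1, which had no count, were detected, though LGALS4 had no count in C3. The summed level of the 11 was 8494 to 9140.0 CPM in scramble, 6888 to 7084 CPM in C3 and 8964 to 9071 CPM in C6. Haematopoietic markers summed to 25.1 to 26.4 CPM in scramble, 17.2 to 17.9 CPM in C3 and 40.1 to 46.5 CPM in C6. Of the 15, 9 had under 10 counts in every library, and CD3E and MS4A1 were at 0. CD2 was at 0 in scramble and C3 but at 2.09 and 1.83 CPM in C6, and CD68 stood at 16.8 and 15.2 CPM in scramble, then 10.5 and 10.8 in C3, then 33.0 and 40.0 in C6. Fibroblast markers summed to 23.3 to 24.4 CPM in scramble, 30.7 to 35.1 CPM in C3 and 18.7 to 20.0 CPM in C6 with 4 of 8 at 0, and endothelial markers to 5.995 to 7.28 CPM in scramble, 3.94 to 4.34 CPM in C3 and 7.19 to 7.44 CPM in C6 with 2 of 7 at 0. Neural markers summed to 250.3 to 267 CPM in scramble, 246 to 251 CPM in C3 and 375 to 381 CPM in C6 with 4 of 8 at 0. These sums differed between the lines, and their part in the results on single genes was not tested. In bulk RNA, a change in the share of cells that carry a transcript and a change in its amount per cell cannot be told apart.

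Of the 37 phosphatase genes, 28 passed the low-count filter and were tested, 13 receptor and 15 non-receptor genes. Of these, 6 changed in opposite directions in C3 and C6 (PTPN13, PTPRU, PTPN12, PTPRH, PTPRM and PTPRZ1), and 4 changed in the same direction (PTPN1, PTPN18, PTPRN2 and PTPRE). The adhesion receptors PTPRM and PTPRU and the ligand receptor PTPRZ1 stand among the former, and the metabolic and cytokine regulator PTPN1 among the latter. In C3, 12 of the 28 differed from scramble at an adjusted p under 0.05 in the quasi-likelihood test of edgeR, adjusted by Benjamini-Hochberg over all 13299 genes tested, 6 higher and 6 lower. Over all genes tested 24.3% were called in C3, 12.4% higher and 11.9% lower. In C6, 17 were called, 11 higher and 6 lower, beside 46.7% of all genes (23.8% higher and 22.8% lower). The direct test of C6 against C3, which uses no scramble library for the difference, called 18, with 12 higher and 6 lower in C6, beside 49.2% of all genes (25.1% higher and 24.1% lower). In the mean over C3 and C6 against scramble 11 were called, 7 higher and 4 lower, beside 32.9% of all genes (16.6% higher and 16.3% lower). That mean rests on treating C3 and C6 as separate groups. With the 4 knockdown libraries as 1 group, edgeR's test called 0 of the 28, against 6 at an unadjusted p under 0.05. Over all genes that grouping called 80 of 13299, so few calls were to be had for any set.

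Both lines were compared with the same scramble libraries. In the 2 comparisons side by side, 6 of the 28 genes were called with opposite signs, beside 4.93% of all genes. PTPN13 and PTPRU were higher in C3 and lower in C6, a pattern of 2.31% of all genes, and PTPN12, PTPRH, PTPRM and PTPRZ1 were lower in C3 and higher in C6, a pattern of 2.62%. Called with the same sign in both were 4, beside 10.0% of all genes: PTPN1, PTPN18 and PTPRN2 were higher (5.44% of all genes were higher in both) and PTPRE was lower (4.59%). The median log2 fold change of the 28 genes was -0.0012 in C3 and 0.09 in C6, beside 0.001 and -0.01 over all genes. The median size of the change regardless of sign was 0.29 in C3 and 0.43 in C6, beside 0.18 and 0.29 over all genes. PTPN7 and PTPRN are among the 28 with few counts: PTPN7 reached 10 counts in the scramble libraries alone, and PTPRN in scramble replicate 1 and C3 replicate 2 alone. PTPN7 thus passed the low-count filter through scramble alone, so a call of it could hardly be other than lower. It is counted among the genes called lower in C6 and in the mean, and its calls there are no independent result.

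**Figure D1:**
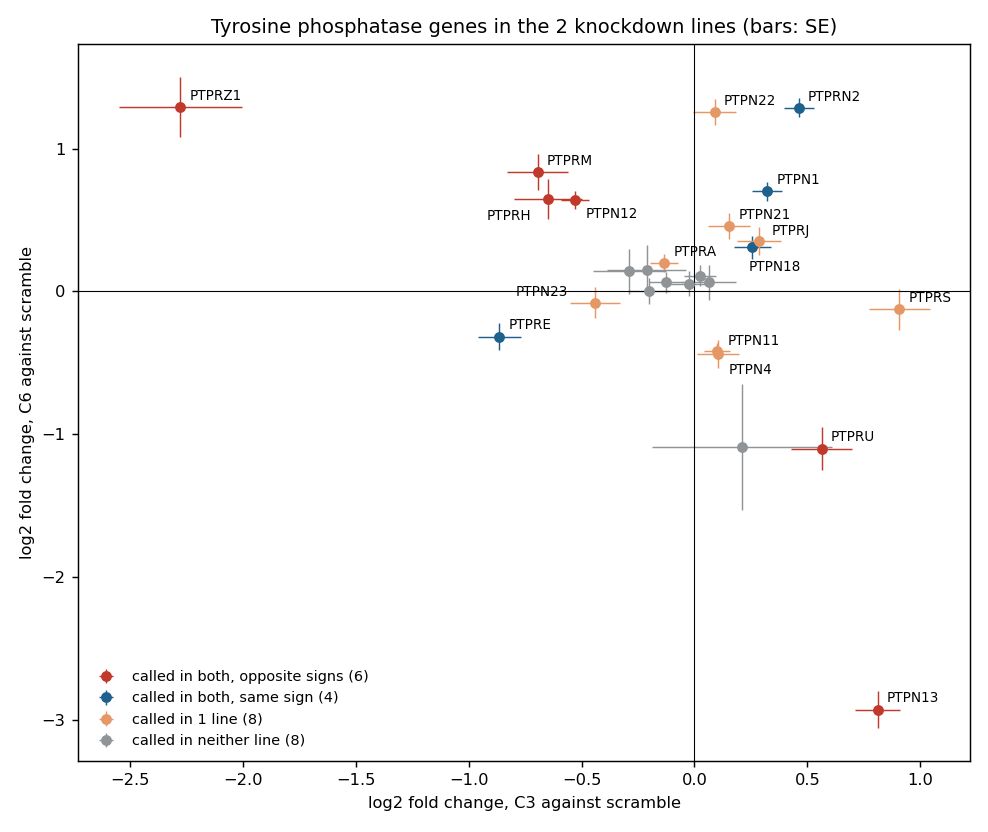
Log2 fold change against scramble in C3 (horizontal axis) and in C6 (vertical axis) for 26 tested phosphatase genes, with bars of 1 SE; PTPN7 and PTPRN, which had few counts, are left out. The 6 genes called with opposite signs lie in the upper left and lower right areas, with PTPRZ1 and PTPN13 farthest from the origin, and both axes share the scramble libraries.

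**Figure D2:**
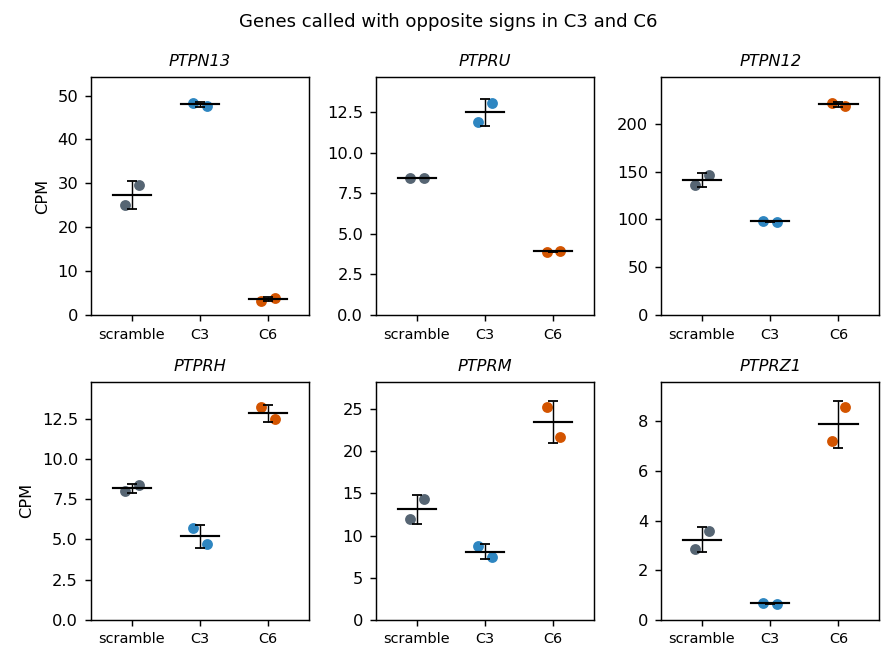
CPM in each library (points) for the 6 genes called with opposite signs in C3 and C6, with the group mean (line) and SD (bar, n = 2); each vertical axis starts at 0. In every panel the scramble libraries lie between the C3 and the C6 libraries, and no pair of groups overlaps.

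Among the receptors with MAM domains, which bind the same molecule on a neighbouring cell, PTPRM and PTPRU moved in opposite directions to each other in each line. PTPRM (chr18:7567316-8406856, GRCh38.p14), a homophilic adhesion receptor that associates with cadherins, stood at 11.9 and 14.3 CPM in the scramble libraries, 8.72 and 7.47 in C3 and 25.2 and 21.8 in C6. The groups did not overlap, with C3 lowest and C6 highest. Its log2 fold change was -0.70 ± 0.14 (adjusted p = 0.0015) in C3 and 0.84 ± 0.13 (adjusted p = 6.9e-05) in C6, and C6 exceeded C3 by 1.53 ± 0.13 (adjusted p = 1.8e-07). PTPRU (chr1:29236522-29326800), a relative of PTPRM also found at cell contacts, stood at 8.43 and 8.45 CPM in the scramble libraries, 11.9 and 13.1 in C3 and 3.91 and 3.95 in C6. Here the order of the groups was the reverse, C3 above scramble above C6, again without overlap. PTPRU was higher in C3 by 0.56 ± 0.14 (adjusted p = 0.0065) and changed by -1.10 ± 0.15 (adjusted p = 2.9e-05) in C6, and C6 differed from C3 by -1.66 ± 0.15 (adjusted p = 2.4e-07). Its call in C3 was lost without C3 replicate 2 (0.49 with adjusted p = 0.081). PTPRK (chr6:127968785-128520599), another homophilic receptor of this kind, had a level of 33.1 and 41.1 CPM in the scramble libraries, 33.4 and 27.4 in C3 and 35.5 and 46.3 in C6, and was called in neither line. Its difference of C6 from C3 was 0.43 ± 0.16 (adjusted p = 0.053), and 7 alternatives beside the replicate block, DESeq2 among them, put it under the threshold, with adjusted p from 0.0057 to 0.048. PTPRT, the fourth, had at most 4 counts in any library.

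The annotated promoters of 4 of the 6 genes called with opposite signs are printed below to show the sequence at the start sites of the genes with the widest separation between the lines. Each runs from 250 bases before to 50 bases after the start, on the plus strand of GRCh38.p14, from RefSeq: PTPRM at chr18:7567066-7567365, PTPRU at chr1:29236272-29236571, PTPRZ1 at chr7:121872911-121873210 and PTPN13 at chr4:86594065-86594364. Capitals mark the GC box GGGCGG, read on both strands, so that a match on the other strand is printed as its reverse complement.
PTPRM: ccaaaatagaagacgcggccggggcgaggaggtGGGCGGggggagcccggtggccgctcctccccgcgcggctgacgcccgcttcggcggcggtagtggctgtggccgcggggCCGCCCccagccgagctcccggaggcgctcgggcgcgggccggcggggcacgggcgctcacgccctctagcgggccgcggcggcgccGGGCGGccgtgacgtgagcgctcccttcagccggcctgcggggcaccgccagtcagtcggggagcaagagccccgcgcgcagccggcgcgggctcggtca
PTPRU: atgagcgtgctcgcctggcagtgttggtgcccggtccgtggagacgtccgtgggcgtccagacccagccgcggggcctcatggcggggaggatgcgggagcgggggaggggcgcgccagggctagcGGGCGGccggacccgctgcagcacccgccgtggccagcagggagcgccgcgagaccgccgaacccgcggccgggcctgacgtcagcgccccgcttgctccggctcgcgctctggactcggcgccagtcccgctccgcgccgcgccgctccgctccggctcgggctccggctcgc
PTPRZ1: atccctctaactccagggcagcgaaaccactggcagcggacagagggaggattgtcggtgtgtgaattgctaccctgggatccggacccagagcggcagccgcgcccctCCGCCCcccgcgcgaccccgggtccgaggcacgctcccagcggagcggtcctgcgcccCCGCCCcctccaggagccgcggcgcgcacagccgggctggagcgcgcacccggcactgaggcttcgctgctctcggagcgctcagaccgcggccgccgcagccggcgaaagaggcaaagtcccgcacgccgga
PTPN13: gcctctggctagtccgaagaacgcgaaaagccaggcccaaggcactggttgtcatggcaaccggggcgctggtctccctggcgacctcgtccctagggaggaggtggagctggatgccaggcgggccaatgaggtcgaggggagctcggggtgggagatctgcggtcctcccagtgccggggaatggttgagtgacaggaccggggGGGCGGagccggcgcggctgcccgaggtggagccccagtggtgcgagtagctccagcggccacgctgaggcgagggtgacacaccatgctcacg
PTPRM holds 3 matches, which begin at -217, -137 and -50 relative to the start, and PTPRZ1 holds 2, at -141 and -83, both on the minus strand. PTPRU holds 1 at -124 and PTPN13 holds 1 at -44. Of the printed genes, PTPRM and PTPRZ1 were lower in C3, and PTPRU and PTPN13 were higher there. Of the other genes called with opposite signs, both lower in C3, PTPN12 held 0 matches and PTPRH held 1. The part of the GC box in these changes was not tested. It was found in 19 of the 32 phosphatase promoters in the RefSeq table and in 44.6% of all 27305 promoters of the same length. A match is a description of the letters, and no factor was measured at these sites.

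Of the LAR-type receptors, which bind heparan and chondroitin sulfate proteoglycans, PTPRS rose in C3 and was not called in C6. PTPRS (chr19:5205508-5340812) stood at 8.17 and 7.04 CPM in the scramble libraries, 13.8 and 14.8 in C3 and 6.61 and 7.33 in C6. Both C3 libraries lay above every other library, while the scramble and C6 libraries overlapped. The log2 fold change was 0.91 ± 0.14 (adjusted p = 0.00017) in C3 and -0.12 ± 0.14 (adjusted p = 0.50) in C6, and the difference of C6 from C3 was -1.03 ± 0.14 (adjusted p = 1.6e-05). The mean over both lines was 0.39 ± 0.12 (adjusted p = 0.023), but DESeq2 put it at an adjusted p of 0.088, and it was lost without scramble replicate 2 (adjusted p = 0.22), C3 replicate 2 (adjusted p = 0.067) or C6 replicate 2 (adjusted p = 0.061). PTPRF (chr1:43522051-43623666), the LAR receptor itself and a partner of beta-catenin, stood at 51.04 and 57.2 CPM in the scramble libraries, 51.2 and 42.2 in C3 and 50.3 and 69.9 in C6. It was not called in any comparison, and the difference of C6 from C3 was 0.36 ± 0.17 (adjusted p = 0.13), which DESeq2 put at an adjusted p of 0.024. Without C6 replicate 1 PTPRF was called in C6 (0.37 with adjusted p = 0.027) and in C6 against C3 (0.58 with adjusted p = 0.0021). PTPRD had no count in any library.

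Of the receptors built of fibronectin repeats with a single catalytic domain, PTPRH was called in both lines with opposite signs, and PTPRJ in C6. PTPRH (chr19:55181247-55209501), known as stomach cancer-associated phosphatase and found on the microvilli of gut epithelium, stood at 7.99 and 8.38 CPM in the scramble libraries, 5.71 and 4.70 in C3 and 13.2 and 12.5 in C6. The groups were in the order C3, scramble, C6 and did not overlap. PTPRH changed by -0.65 ± 0.15 (adjusted p = 0.0051) in C3 and by 0.65 ± 0.14 (adjusted p = 0.0015) in C6, and C6 exceeded C3 by 1.30 ± 0.15 (adjusted p = 3.2e-06). The C3 call was lost without C3 replicate 2 (-0.52 with adjusted p = 0.069). PTPRJ (chr11:47980559-48170839), which dephosphorylates growth factor receptors such as MET, stood at 80.8 and 97.4 CPM in the scramble libraries, 113 and 104 in C3 and 105 and 123 in C6. All 4 knockdown libraries were above both scramble libraries, and C3 and C6 overlapped. Its change was 0.28 ± 0.10 (adjusted p = 0.054) in C3, 0.36 ± 0.10 (adjusted p = 0.011) in C6 and 0.32 ± 0.09 (adjusted p = 0.013) in the mean, with no called difference between the lines, 0.07 ± 0.10 with adjusted p = 0.58. Without scramble replicate 1 the mean was 0.19 with adjusted p = 0.17 and the C6 value 0.23 with adjusted p = 0.10, and the C6 call was also lost without C6 replicate 2 (adjusted p = 0.090). The C3 value passed in 5 alternatives beside the replicate block, among them DESeq2 (adjusted p = 0.036).

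PTPRB (chr12:70515870-70637429), the vascular endothelial phosphatase that acts on VE-cadherin and TEK, was low, at 1.49 and 1.42 CPM in the scramble libraries, 1.58 and 1.78 in C3 and 0.418 and 0.935 in C6. Both C6 libraries were under every other library. The summed endothelial markers given above were not lower in C6 than in scramble, and VWF made up most of that sum. Among them PECAM1 was lower in C6, at 0.494 and 0.360 CPM against 1.49 and 0.894 in scramble, while VWF, TEK and ESAM were higher. Their part in the values of PTPRB was not tested. C6 differed from C3 by -1.30 ± 0.43 (adjusted p = 0.022), a call lost without C3 replicate 1, C3 replicate 2 or C6 replicate 1, with adjusted p from 0.051 to 0.16. Against scramble the C6 value was -1.09 ± 0.44 (adjusted p = 0.055), and it passed with upper-quartile scaling (adjusted p = 0.043), with the stricter filter, 1 CPM in 2 libraries (adjusted p = 0.035) and without C6 replicate 2 (-1.78 with adjusted p = 0.020). PTPRO reached at most 3 counts and PTPRQ had none.

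PTPRZ1 had the widest spread between the lines of any receptor phosphatase tested. PTPRZ1 (chr7:121873161-122062036), a receptor for pleiotrophin and midkine known best from glia, stood at 2.86 and 3.57 CPM in the scramble libraries, 0.678 and 0.640 in C3 and 7.22 and 8.56 in C6. The C3 libraries were lowest, the C6 libraries highest, and none overlapped. In C3 it was 4.85-fold lower (log2 -2.28 ± 0.27, adjusted p = 2.1e-05) and in C6 higher by a log2 value of 1.29 ± 0.21 (adjusted p = 0.00015). C6 exceeded C3 by 11.9-fold, a log2 difference of 3.57 ± 0.26 (adjusted p = 2.9e-08). After the neighbours' shift was taken off, the C6 value was 0.81 with adjusted p = 0.0065. The summed neural markers given above were also highest in C6, while those of scramble and C3 overlapped. SYT1, at 312 and 313 CPM in C6, made up most of that sum. TUBB3 was lower in C6 than in scramble, at 61.4 and 68.5 CPM against 75.6 and 73.3. MDK, the gene of midkine, had log2 values of -0.49 ± 0.08 (adjusted p = 0.00062) in C3 and -0.10 ± 0.08 (adjusted p = 0.37) in C6. PTPRG, the other receptor with a carbonic anhydrase-like domain, had no count in any library.

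Of the receptors with a short ectodomain, PTPRE fell in both lines and PTPRA rose in C6. PTPRE (chr10:127907103-128085855), the close relative of PTPRA, stood at 30.1 and 31.7 CPM in the scramble libraries, 17.7 and 16.2 in C3 and 24.5 and 25.1 in C6. The groups did not overlap, and C3 was the lowest. Its log2 fold change was -0.87 ± 0.10 (adjusted p = 9.6e-06) in C3, -0.32 ± 0.09 (adjusted p = 0.012) in C6 and -0.59 ± 0.08 (adjusted p = 4.7e-05) in the mean, and C6 lay above C3 by 0.55 ± 0.10 (adjusted p = 0.00023). The C6 call was lost without scramble replicate 2 (adjusted p = 0.080), without C6 replicate 1 (adjusted p = 0.061) and with the neighbours' shift taken off (adjusted p = 0.073). PTPRA (chr20:2864184-3038669), which activates SRC by removing its inhibitory tail phosphate, stood at 97.3 and 96.4 CPM in the scramble libraries, 88.8 and 87.6 in C3 and 111 and 112 in C6. C3 was lowest and C6 highest, without overlap. C6 exceeded C3 by 0.34 ± 0.06 (adjusted p = 0.00037) and scramble by 0.20 ± 0.06 (adjusted p = 0.015), and the C3 value was -0.13 ± 0.06 (adjusted p = 0.13). With the neighbours' shift taken off, the C6 value changed sign (-0.14 with adjusted p = 0.079) and the difference from C3 was 0.01 with adjusted p = 0.91. The C6 call was also lost with upper-quartile scaling (adjusted p = 0.079) and without scramble replicate 1 (adjusted p = 0.053), scramble replicate 2 (adjusted p = 0.070) or C6 replicate 2 (adjusted p = 0.050). PTPRA overlaps VPS16 on the same strand in RefSeq, so its counts may hold reads of that gene.

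PTPRN2, a protein of secretory vesicles that lacks ordinary tyrosine phosphatase activity, was higher in both lines. PTPRN2 (chr7:157539056-158587823) stood at 57.4 and 60.4 CPM in the scramble libraries, 79.5 and 82.8 in C3 and 145 and 143 in C6. The groups rose from scramble through C3 to C6 with no overlap. It rose by 0.46 ± 0.07 (adjusted p = 0.00011) in C3, by 1.29 ± 0.07 (adjusted p = 1.2e-09) in C6 and by 0.87 ± 0.06 (adjusted p = 4.2e-08) in the mean, and C6 exceeded C3 by 0.82 ± 0.06 (adjusted p = 6.9e-08). The window of neighbours was 51 genes, and the chromosome end cut it shorter around PTPRN2. Its neighbours on chromosome 7 were also higher, with a median of 0.46 in C3 and 0.74 in C6. With that shift removed the C6 value was 0.55 with adjusted p = 9.4e-06, the mean 0.28 with adjusted p = 0.0024, and the C3 value 0, since PTPRN2 is itself the median of its window there. Its relative PTPRN had 21 and 5 counts in scramble, then 0 and 12 in C3, then 4 and 0 in C6, and was called in no comparison, except in the mean without C3 replicate 2 (adjusted p = 0.035). Of the remaining receptor genes, PTPRC, the CD45 phosphatase of leukocytes, had no count, and PTPRR had at most 9 counts in any library.

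Among the non-receptor phosphatases, PTPN1 rose in both lines while its close relative PTPN2 was not called. PTPN1 (chr20:50510383-50585241), the endoplasmic reticulum-anchored enzyme that dephosphorylates the insulin receptor and JAK2, stood at 58.4 and 62.1 CPM in the scramble libraries, 76.1 and 74.6 in C3 and 98.5 and 97.5 in C6. The groups did not overlap, with C6 the highest. It rose by 0.32 ± 0.07 (adjusted p = 0.0026) in C3, 0.70 ± 0.07 (adjusted p = 7.6e-07) in C6 and 0.51 ± 0.06 (adjusted p = 1.1e-05) in the mean, and C6 exceeded C3 by 0.38 ± 0.07 (adjusted p = 0.00024). Genes around it on chromosome 20 were higher as well, with a median of 0.42 in C3 and 0.45 in C6. With that shift removed the C3 value changed sign (-0.10 with adjusted p = 0.31), the C6 value was 0.25 with adjusted p = 0.0078 and the mean 0.07 with adjusted p = 0.39. PTPN2 (chr18:12785478-12884237), which dephosphorylates JAK and STAT proteins, stood at 88.5 and 84.3 CPM in the scramble libraries, 83.8 and 91.7 in C3 and 97.0 and 89.6 in C6, and its changes were 0.02 ± 0.07 (adjusted p = 0.85) in C3 and 0.11 ± 0.07 (adjusted p = 0.22) in C6. RefSeq lists 2 pseudogenes of PTPN2, so its count may include or miss reads of these copies.

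Of the phosphatases with SH2 domains, PTPN11 fell in C6 and PTPN6 was called in C6 against C3 and in no other comparison. PTPN11 (chr12:112418947-112509918), SHP2, which carries signals from receptor tyrosine kinases to RAS and ERK, stood at 297 and 309 CPM in the scramble libraries, 329 and 321 in C3 and 226 and 229 in C6. Both C6 libraries were under all others, and both C3 libraries were above scramble. It changed by -0.41 ± 0.06 (adjusted p = 2.6e-05) in C6 and 0.10 ± 0.06 (adjusted p = 0.22) in C3, and C6 differed from C3 by -0.51 ± 0.06 (adjusted p = 2.4e-06). The mean of both lines was -0.16 ± 0.05 (adjusted p = 0.021), a call lost without scramble replicate 1 (adjusted p = 0.054), scramble replicate 2 (adjusted p = 0.19), C3 replicate 1 (adjusted p = 0.054) or C3 replicate 2 (adjusted p = 0.092). RefSeq lists 5 pseudogenes of PTPN11, so its count is uncertain in the same way as that of PTPN2. PTPN6 (chr12:6946577-6961316), SHP1, a brake on cytokine and immune receptor signalling that epithelia also express, stood at 61.6 and 59.0 CPM in the scramble libraries, 57.6 and 52.8 in C3 and 62.7 and 63.2 in C6. Its difference of C6 from C3 was 0.19 ± 0.07 (adjusted p = 0.044), and it lost this call under 9 alternatives beside the replicate block, the removal of any 1 library among them, with adjusted p from 0.051 to 0.32.

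The 3 PEST-type phosphatases were all called in C6, and all were higher there. PTPN12 (chr7:77537295-77640069), which dephosphorylates the focal adhesion adaptor BCAR1, stood at 136 and 147 CPM in the scramble libraries, 98.6 and 97.4 in C3 and 222 and 219 in C6. The C3 libraries were lowest and the C6 libraries highest, without overlap. It changed by -0.53 ± 0.06 (adjusted p = 1.7e-05) in C3 and 0.64 ± 0.06 (adjusted p = 7.0e-07) in C6, and C6 exceeded C3 by 1.17 ± 0.06 (adjusted p = 1.1e-09). With the neighbours' shift taken off, the C3 value was -0.50 with adjusted p = 3.2e-05 and the C6 value 0.24 with adjusted p = 0.0053. PTPN22 (chr1:113813811-113871759), a lymphoid phosphatase that restrains LCK in T cells, stood at 21.2 and 23.0 CPM in the scramble libraries, 23.1 and 24.0 in C3 and 56.1 and 49.7 in C6. Both C6 libraries lay far above the other 4, and C3 lay just above scramble. It rose by 1.26 ± 0.09 (adjusted p = 4.7e-08) in C6, against 0.09 ± 0.10 (adjusted p = 0.54) in C3, and the difference of C6 from C3 was 1.17 ± 0.09 (adjusted p = 6.7e-08). Its mean over both lines was 0.67 ± 0.08 (adjusted p = 1.9e-05). The summed haematopoietic markers were also highest in C6, as given above, and CD68 made up most of that sum. CD2 was counted in C6 alone, while LAPTM5 was lowest in C6, at 2.43 and 1.91 CPM against 6.50 and 6.44 in scramble. LYZ overlapped between C6 and scramble, and CD3E and MS4A1 had no count. The part of these markers in the rise of PTPN22 was not tested. RefSeq places AP4B1-AS1 across PTPN22 on the other strand, and the sources used here do not give the strand setting of the counting.

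PTPN18 (chr2:130356056-130375405), which dephosphorylates ERBB2, was modestly higher in both lines, at 32.4 and 30.6 CPM in the scramble libraries, 38.5 and 36.7 in C3 and 39.3 and 38.7 in C6. All 4 knockdown libraries were above both scramble libraries. It rose by 0.26 ± 0.08 (adjusted p = 0.032) in C3, 0.31 ± 0.08 (adjusted p = 0.0061) in C6 and 0.28 ± 0.07 (adjusted p = 0.007) in the mean, and C6 and C3 were not called different, at 0.05 ± 0.08 with adjusted p = 0.62. The C3 call was lost under 7 alternatives beside the replicate block: DESeq2 (adjusted p = 0.093), upper-quartile scaling, the removed neighbour shift, and the removal of either scramble or either C3 library, with adjusted p from 0.062 to 0.21. Without scramble replicate 2 the C6 value had an adjusted p of 0.052 and the mean one of 0.085.

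PTPN13 had the largest change of the non-receptor phosphatases tested, setting PTPN7 aside. PTPN13 (chr4:86594315-86815161) is a very large scaffold-like phosphatase with a FERM domain and several PDZ domains, known to bind the death receptor FAS. It stood at 25.1 and 29.6 CPM in the scramble libraries, 48.4 and 47.6 in C3 and 3.23 and 3.92 in C6. The C6 libraries were far under scramble and the C3 libraries above it, with no overlap. PTPN13 rose by 0.81 ± 0.10 (adjusted p = 2.7e-05) in C3 and was 7.62-fold lower in C6 (log2 -2.93 ± 0.13, adjusted p = 3.0e-10). Between the lines the level was 13.4-fold lower in C6 than in C3 (log2 -3.74 ± 0.13, adjusted p = 1.2e-11). The mean over both lines, -1.06 ± 0.10 (adjusted p = 9.8e-07), therefore joins a rise and a fall, and with the knockdown libraries as 1 group it was -0.08 with adjusted p = 0.98. Its neighbours on chromosome 4 did not share the change: the median of 51 genes was 0.01 in C3 and -0.09 in C6, and the 10 genes nearest to it ran from -0.38 to 0.58 in C6. With that shift removed its values were 0.80 in C3 and -2.84 in C6.

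The other phosphatases with FERM domains changed less. PTPN21 (chr14:88465778-88555007), a FERM phosphatase that binds SRC and other kinases, stood at 26.6 and 30.9 CPM in the scramble libraries, 30.9 and 33.0 in C3 and 38.7 and 40.3 in C6. Both C6 libraries were highest, and scramble replicate 2 lay beside C3 replicate 1. It rose by 0.46 ± 0.09 (adjusted p = 0.00081) in C6 and was 0.15 ± 0.09 (adjusted p = 0.26) in C3. The mean was 0.31 ± 0.08 (adjusted p = 0.009), lost without scramble replicate 1 (adjusted p = 0.14), and C6 exceeded C3 by 0.31 ± 0.09 (adjusted p = 0.011), lost without C3 replicate 1 (adjusted p = 0.10) or C6 replicate 2 (adjusted p = 0.068). PTPN21 overlaps SPATA7 on the other strand. PTPN4 (chr2:119759922-119984899), with a FERM and a PDZ domain, stood at 29.6 and 34.3 CPM in the scramble libraries, 35.4 and 33.2 in C3 and 24.0 and 23.2 in C6. Both C6 libraries were under the other 4, and scramble and C3 overlapped. PTPN4 changed by -0.44 ± 0.10 (adjusted p = 0.0016) in C6 and 0.10 ± 0.09 (adjusted p = 0.46) in C3, and C6 differed from C3 by -0.54 ± 0.10 (adjusted p = 0.00024). PTPN14 (chr1:214348700-214551602), which holds the growth regulator YAP in the cytoplasm, stood at 127 and 149 CPM in the scramble libraries, 159.7 and 128 in C3 and 136 and 153 in C6. It was called in no comparison, with 0.06 ± 0.12 (adjusted p = 0.77) in C3 and 0.07 ± 0.12 (adjusted p = 0.70) in C6. PTPN3, the close relative of PTPN4, was likewise not called (-0.03 ± 0.09 in C3, 0.05 ± 0.09 in C6).

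The remaining non-receptor genes were PTPN23, PTPN9, PTPN7, PTPN5 and PTPN20. PTPN23 (chr3:47381021-47413435), a BRO1-domain protein of endosomal sorting, stood at 49.0 and 55.1 CPM in the scramble libraries, 41.4 and 35.2 in C3 and 44.1 and 54.5 in C6. The C3 libraries were lowest, and scramble and C6 overlapped. It changed by -0.44 ± 0.11 (adjusted p = 0.011) in C3 and -0.08 ± 0.11 (adjusted p = 0.59) in C6, and C6 exceeded C3 by 0.36 ± 0.11 (adjusted p = 0.016). The C3 call was lost without scramble replicate 2 (adjusted p = 0.11) or C3 replicate 2 (adjusted p = 0.094), and the difference between lines without C3 replicate 2 (adjusted p = 0.13) or C6 replicate 2 (adjusted p = 0.19). Its mean of both lines was -0.26 ± 0.09 (adjusted p = 0.052) and passed in 6 alternatives, with adjusted p from 0.013 to 0.049. PTPN9, a phosphatase with a lipid-binding SEC14 domain, was not called (-0.20 ± 0.09 in C3, 0.00 ± 0.09 in C6), except in C6 against C3 with the neighbours' shift taken off (0.30 with adjusted p = 0.016). PTPN7, which acts on ERK and p38 in blood cells, had 20 and 11 counts in scramble, then 0 and 4 in C3, then none in C6. It passed the low-count filter through the scramble libraries alone. Against a floor of 3 counts per C6 library its C6 level was at least 5.20-fold lower than the scramble mean. That bound leaves out the error of the scramble mean, whose libraries stood at 0.743 and 0.410 CPM. The call in C6 (edgeR's test, adjusted p = 0.0068) was lost without scramble replicate 1, C6 replicate 1 or C6 replicate 2. Its call in the mean (adjusted p = 0.0054) was lost without scramble replicate 1 (adjusted p = 0.11). PTPN5 had no count and PTPN20 at most 2.

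**Figure D3:**
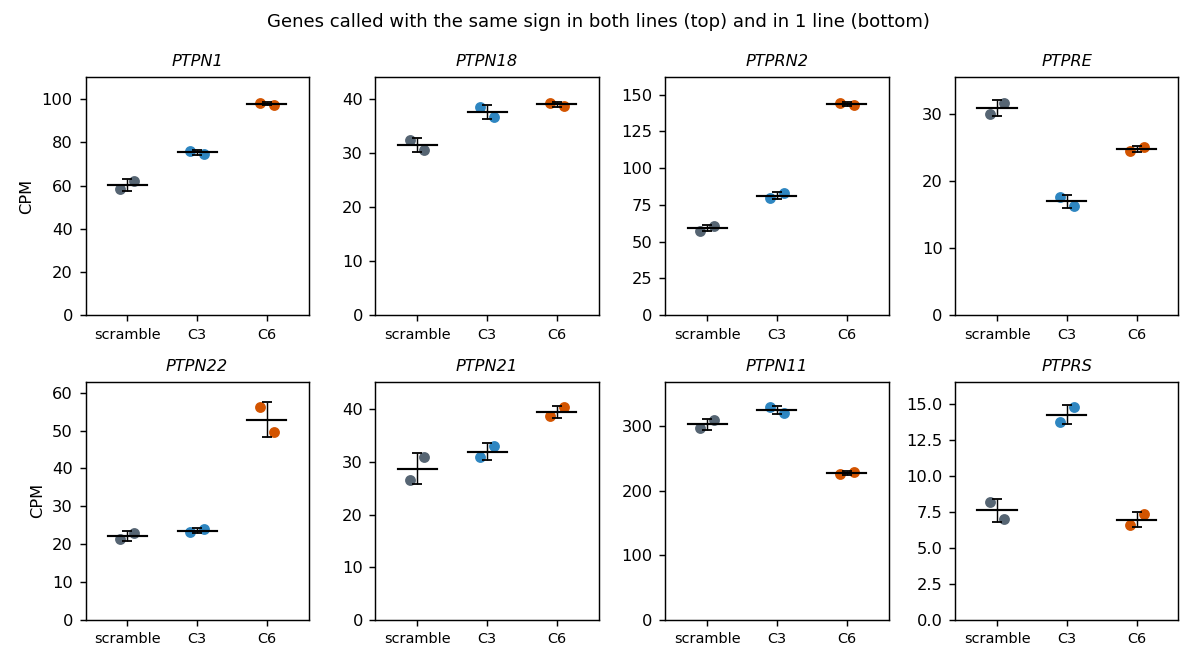
CPM in each library (points) for the 4 genes called with the same sign in both lines (top row) and for 4 genes called in 1 line (bottom row), with the group mean (line) and SD (bar, n = 2); each vertical axis starts at 0. PTPN1 and PTPRN2 step upwards from scramble through C3 to C6, PTPRE is lowest in C3, and the C6 libraries lie above all others for PTPN22 and under all others for PTPN11.

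Fewer than 10 counts in every library were found for 9 of the 37 genes: PTPN5, PTPN20, PTPRC, PTPRD, PTPRG, PTPRO, PTPRQ, PTPRR and PTPRT. PTPN5, PTPRC, PTPRD, PTPRG and PTPRQ had no count in any library, which at 3 counts allows a level of up to 0.0968 to 0.114 CPM per library, for counting error only. Per kilobase of the median annotated transcript, PTPN11 was the highest phosphatase in scramble at 76.0 CPM per kilobase, followed by PTPN12 at 56.0, PTPN2 at 50.6, PTPN6 at 26.8 and PTPRA at 26.6. PTPN6 and PTPRA lay next to each other in this order with no test of the difference. With the longest transcript in place of the median, PTPN11, PTPN12 and PTPN2 came to 49.7, 41.6 and 24.9, and PTPRA at 26.0 and PTPN6 at 25.2 then stood above PTPN2. In C6, PTPN12 at 87.4 stood above PTPN11 at 57.0 CPM per kilobase. At the low end of the order PTPRZ1 stood at 0.503 and PTPRB at 0.243 in scramble. Summed over all 37 genes, the level was 1412 and 1519.5 CPM in the scramble libraries, 1518 and 1443 in C3 and 1649 and 1709.6 in C6. The receptor genes made up 391.8 and 428 CPM of this in scramble, then 426 and 403 in C3, then 528 and 574 in C6. C6 was the highest group in both sums, while scramble and C3 overlapped, and the sums carry no test.

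**Figure D4:**
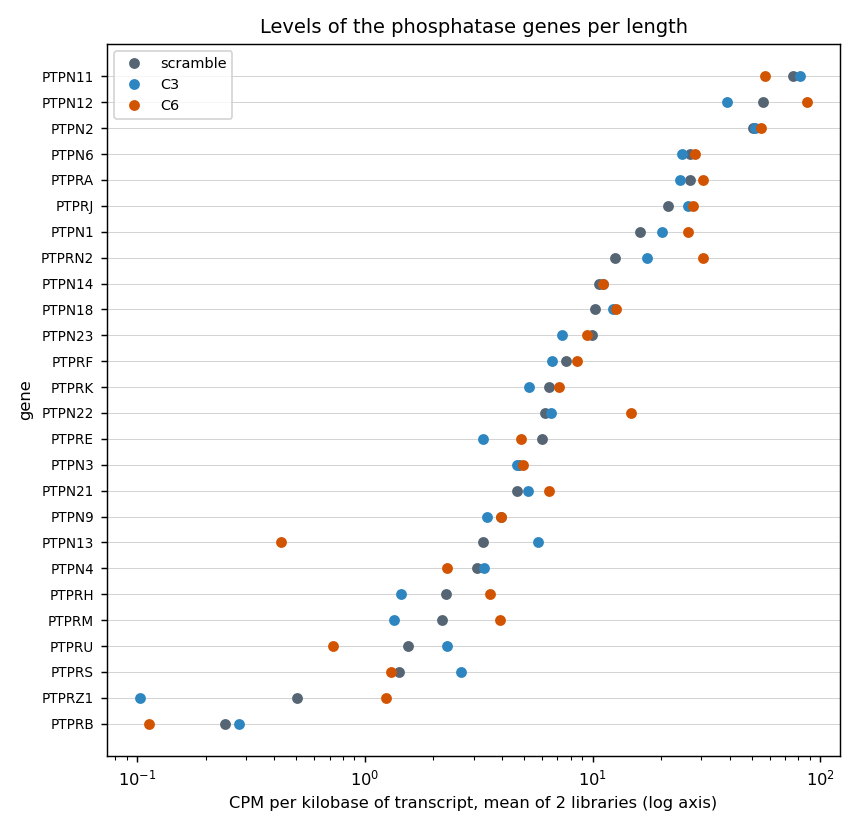
Level of 26 tested phosphatase genes in CPM per kilobase of the median annotated transcript (log axis), as the mean of 2 libraries in scramble, C3 and C6, ordered by the scramble level. PTPN11 and PTPN12 lead in scramble, and PTPN13 and PTPRZ1 show the widest gaps between the lines.

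Position along the chromosome was set beside the changes because several phosphatase genes lay among neighbours that were shifted in the same line. The 3 tested phosphatases on chromosome 7, PTPN12, PTPRZ1 and PTPRN2, were all higher in C6. The medians of the windows around them, which for PTPRN2 held fewer than 51 genes, were 0.40, 0.48 and 0.74 in C6. In C3 these medians were -0.03, -0.05 and 0.46. On chromosome 20 the medians in C6 were 0.45 around PTPN1 and 0.34 around PTPRA, and in C3 0.42 and 0.02. Around PTPRN on chromosome 2 the median in C6 was -0.37. For PTPN13, PTPN22, PTPRM, PTPRH, PTPRU and PTPRS the medians around the gene were between -0.09 and 0.04 in both lines. With the neighbours' shift removed in each line, all 6 genes called with opposite signs were still called with opposite signs. None of PTPN1, PTPN18, PTPRN2 and PTPRE was then called with the same sign in both lines by edgeR's test. PTPRN2 could not be, since it was itself the median of its window in C3 and its value there became 0. Over all 13299 genes that setting called 3009 in C3 and 5417 in C6, beside 9 and 15 of the phosphatase genes. At an unadjusted p under 0.05, 5 genes had the same sign in both lines under that setting: PTPN18, PTPN7, PTPRA, PTPRE and PTPRJ. DNA was not measured here.

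**Figure D5:**
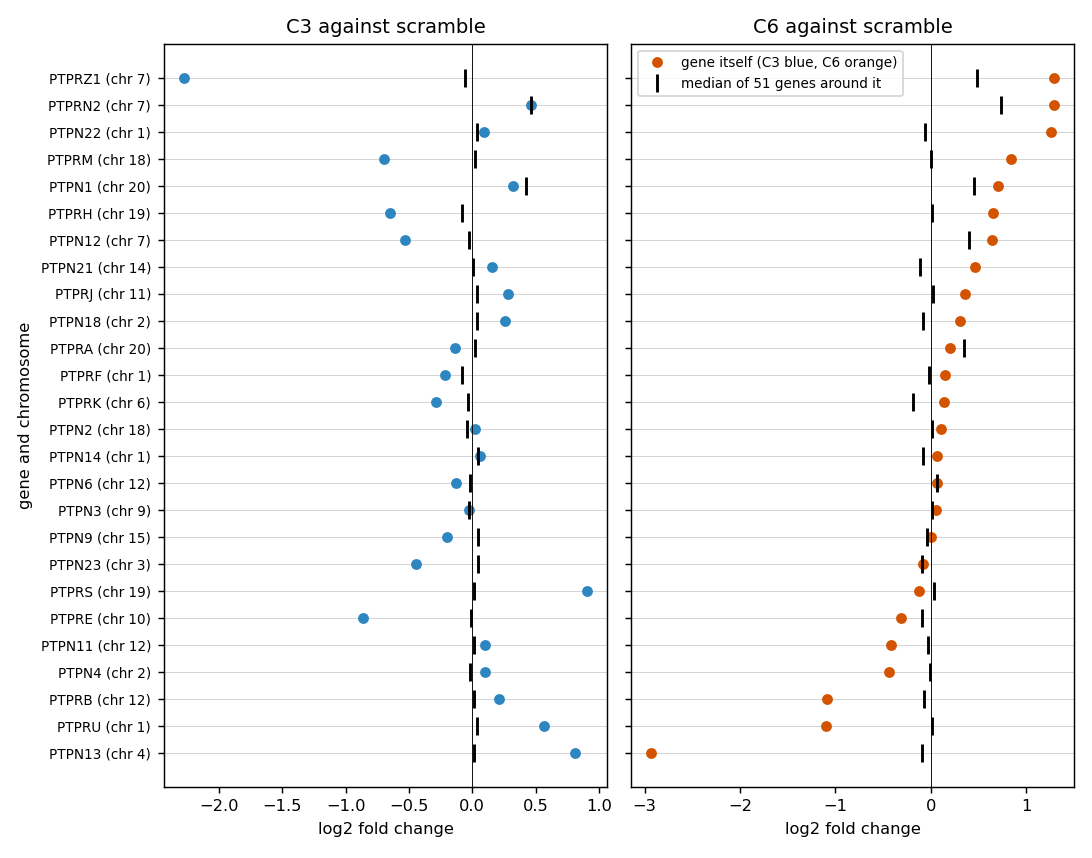
Log2 fold change of 26 tested phosphatase genes (points) in C3 (left) and C6 (right). Each tick is the median of up to 51 tested genes around that gene on its chromosome, itself included, and fewer near a chromosome end. In C6 the ticks of PTPRN2, PTPRZ1, PTPN1, PTPN12 and PTPRA stand right of 0, whereas those of PTPN13, PTPN22 and PTPRM lie near it.

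The kinases, adaptors, ligands and substrates that these phosphatases work with were counted from lists, each read against the shares of all genes called (16.6% higher and 16.3% lower in the mean, 12.4% and 11.9% in C3, 23.8% and 22.8% in C6). Of the Src family kinases and their regulators, 2 of 8 were higher and 1 lower in the mean over C3 and C6, 6 higher and 1 lower in C3, and 0 higher and 2 lower in C6. Beside the 0 higher in C6 by edgeR's test, 1 had an unadjusted p under 0.05 and 0 were called by DESeq2. LCK, a target of PTPN22, had log2 values of -0.49 ± 0.06 (adjusted p = 3.7e-05) in C3 and 0.13 ± 0.06 (adjusted p = 0.11) in C6. FRK had log2 values of 0.66 ± 0.12 (adjusted p = 0.0011) in C3 and 0.31 ± 0.12 (adjusted p = 0.050) in C6. The list's median was 0.25 in C3 and -0.01 in C6, beside 0.001 and -0.01 over all genes. Of the receptor tyrosine kinases, 4 of 20 were higher and 6 lower in the mean over C3 and C6, 2 higher and 7 lower in C3, and 6 higher and 4 lower in C6. MET, a target of PTPRJ, was -0.25 ± 0.06 (adjusted p = 0.0084) in C3 and 0.97 ± 0.06 (adjusted p = 1.2e-08) in C6. EGFR had log2 values of -3.39 ± 0.49 (adjusted p = 0.00011) in C3 and -0.47 ± 0.38 (adjusted p = 0.33) in C6. Its level was low, at 2.41 and 1.94 CPM in scramble and 0.129 and 0.285 in C3, so few counts stand behind the C3 value. Of the JAK-STAT genes, 1 of 17 were higher and 3 lower in the mean over C3 and C6, 1 higher and 3 lower in C3, and 5 higher and 3 lower in C6. STAT6, a transcription factor of this pathway, had log2 values of -0.29 ± 0.07 (adjusted p = 0.0055) in C3 and -0.65 ± 0.07 (adjusted p = 2.1e-06) in C6. Of the docking and adaptor proteins of SHP2, 3 of 16 were higher and 2 lower in the mean over C3 and C6, 3 higher and 4 lower in C3, and 5 higher and 1 lower in C6. SIRPA, a membrane protein that recruits SHP1 and SHP2, had log2 values of 0.71 ± 0.13 (adjusted p = 0.00067) in C3 and 0.79 ± 0.13 (adjusted p = 0.0001) in C6. BCAR1, the substrate of PTPN12, had log2 values of 0.44 ± 0.06 (adjusted p = 4.1e-05) in C3 and 0.15 ± 0.06 (adjusted p = 0.047) in C6.

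Of the junction substrates, 0 of 11 were higher and 5 lower in the mean over C3 and C6, 0 higher and 3 lower in C3, and 2 higher and 4 lower in C6. CDH1 (E-cadherin) had log2 values of -1.96 ± 0.07 (adjusted p = 4.1e-11) in C3 and -0.30 ± 0.06 (adjusted p = 0.0014) in C6. CTNNB1 (beta-catenin) had log2 values of 0.01 ± 0.05 (adjusted p = 0.94) in C3 and -0.39 ± 0.06 (adjusted p = 3.8e-05) in C6. In the mean the list's median was -0.16, beside -0.0045 over all genes. By edgeR's test 0 were higher in the mean or in C3, with 0 at an unadjusted p under 0.05 and 0 by DESeq2. CDH1 is also one of the epithelial markers, whose sum was lowest in C3. KRT8, KRT18 and KRT19 made up most of that sum, and VIL1 was higher in C3, at 376 and 364 CPM against 284 and 300 in scramble. Of the ligands and partners of receptor phosphatases, 2 of 14 were higher and 6 lower in the mean over C3 and C6, 1 higher and 5 lower in C3, and 4 higher and 4 lower in C6. THBS1, a reported ligand of PTPRJ, had log2 values of 2.03 ± 0.11 (adjusted p = 6.3e-09) in C3 and -0.22 ± 0.12 (adjusted p = 0.15) in C6. SDC4, a heparan sulfate proteoglycan, had log2 values of -0.05 ± 0.07 (adjusted p = 0.65) in C3 and 1.53 ± 0.06 (adjusted p = 2.2e-10) in C6. IL1RAP, a synaptic partner of LAR-type receptors, had log2 values of -0.44 ± 0.21 (adjusted p = 0.14) in C3 and -1.85 ± 0.23 (adjusted p = 1.3e-05) in C6. Of the YAP pathway partners of PTPN14, 3 of 18 were higher and 4 lower in the mean over C3 and C6, 2 higher and 4 lower in C3, and 4 higher and 5 lower in C6. TEAD2, a transcription factor partner of YAP, had log2 values of -2.07 ± 0.17 (adjusted p = 4.0e-07) in C3 and -0.62 ± 0.15 (adjusted p = 0.0035) in C6. CCN1, a target gene of YAP, had log2 values of 0.69 ± 0.18 (adjusted p = 0.010) in C3 and 1.499 ± 0.17 (adjusted p = 4.7e-06) in C6. Of the ESCRT partners of PTPN23, 6 of 17 were higher and 1 lower in the mean over C3 and C6, 2 higher and 2 lower in C3, and 7 higher and 0 lower in C6. Beside the 0 lower in C6 by edgeR's test, 1 had an unadjusted p under 0.05 and 0 were called by DESeq2. CHMP4A, an ESCRT-III subunit, had log2 values of 0.13 ± 0.08 (adjusted p = 0.27) in C3 and 0.65 ± 0.08 (adjusted p = 8.9e-06) in C6. Of the other cysteine-based phosphatases, mostly dual-specificity enzymes, 10 of 43 were higher and 5 lower in the mean over C3 and C6, 4 higher and 2 lower in C3, and 13 higher and 9 lower in C6. DUSP4 and DUSP6, which dephosphorylate ERK, differed in direction in C6. DUSP4 had log2 values of 0.15 ± 0.06 (adjusted p = 0.094) in C3 and 1.34 ± 0.06 (adjusted p = 3.5e-10) in C6. DUSP6 had log2 values of -0.28 ± 0.06 (adjusted p = 0.004) in C3 and -0.91 ± 0.06 (adjusted p = 2.4e-08) in C6.

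Promoter sequence was compared for the 32 phosphatase genes with an entry in the RefSeq table. PTPN11, PTPRB, PTPRJ, PTPRN2 and PTPRQ had none. Median GC content was 68.7% in the phosphatase promoters and 58.3% over all 27305 promoters, and the median ratio of observed to expected CpG was 0.806 against 0.580. The CCAAT box, letters CCAAT on either strand, was found in 11 of 32 and in 35.7% of all. The AP-1 site TGANTCA was in 1 of 32 and 7.76% of all, and the E-box CACGTG in 1 of 32 and 7.43% of all. None of the 32 held the STAT site TTCNNNGAA (7.88% of all) or the TATA box TATAAA (12.0% of all). The windows of some genes lie inside the gene and not at its outermost start. Those of PTPN2, PTPN3 and PTPRR hold 37%, 40% and 37.7% GC, and those of PTPRA and PTPRF 71.7% and 68.7%. The 27305 promoters also include those of non-coding genes, so the comparison is with a mixed group. These are counts of letters in windows of 300 bases and carry no test.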

How the data were processed

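The deposited table holds unscaled read counts per gene and library, per the file headers. The submitters' processing notes name Trimmomatic 0.38, HISAT2 2.1.0, StringTie 2.1.3b, DESeq2 and build hg38. The sources used here do not give how reads were assigned, or whether by strand. The 37 phosphatase genes, the lists and the markers were chosen with earlier results of these data known. Counts were scaled by TMM, filtered by filterByExpr (13299 of 19672 genes tested) and fitted with edgeR 4.0.16 in R 4.3.3 (glmQLFit robust, glmQLFTest) over 3 groups with 3 residual degrees of freedom, with Benjamini-Hochberg adjustment over all genes tested and a threshold of 0.05. Each ± on a log2 value is the standard error of the fit. The fit was tested on simulated data in which C3 and C6 had the same change, and only the mean comparison was scored. The comparisons of single lines and of C6 against C3 were not checked in this way. Chromosome positions came from RefSeq on GRCh38.p14 for 19448 genes, transcript lengths from GENCODE. Alternatives were RLE and upper-quartile scaling, other low-count filters, DESeq2 1.42.0 and the replicate number as a block. Others were the knockdown libraries as 1 group, the median of up to 51 neighbouring genes taken off in each line, and leaving out each library. The windows of neighbouring genes held the gene itself and were cut at chromosome ends. Named were all members by their calls, and at most 4 genes per list with the smallest p in the mean. The library totals given in the report limit the precision of low counts, and intervals at a floor of 3 counts cover counting error only.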

Additional observations from a re-analysis of the deposited data

Results flagged for a closer look

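For 18 of the 28 tested phosphatase genes the effect in C6 differed from that in C3 by the test of the difference itself (edgeR's quasi-likelihood test, Benjamini-Hochberg adjusted p under 0.05), as it did for 49.2% of all genes tested. Values are log2 differences of C6 from C3. The widest were PTPN13 at -3.74 and PTPRZ1 at 3.57, in opposite directions. Among the other receptor genes, the difference was 1.53 for PTPRM, 1.30 for PTPRH, 0.82 for PTPRN2, 0.55 for PTPRE and 0.34 for PTPRA, all higher in C6. PTPRU at -1.66, PTPRB at -1.30 and PTPRS at -1.03 were lower in C6. Among the other non-receptor genes, PTPN12 at 1.17, PTPN22 at 1.17, PTPN1 at 0.38, PTPN23 at 0.36, PTPN21 at 0.31 and PTPN6 at 0.19 were higher in C6. PTPN4 at -0.54 and PTPN11 at -0.51 were lower in C6. The same 2 libraries of each line stand behind all of these values, and the sources used here do not give the hairpin of either line.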

How the results depend on the processing

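Leaving out each library in turn gave 7 to 11 called phosphatase genes in the mean, 8 to 13 in C3, 14 to 17 in C6 and 15 to 18 in C6 against C3. It gave 3 to 4 genes with the same sign and 4 to 6 with opposite signs. The mean count was lowest without scramble replicate 1. Each of these fits left 1 library in a group, and each also called fewer of all genes in the mean than the full fit did. Without C3 replicate 2, PTPRH and PTPRU were no longer called with opposite signs. The median log2 fold change was -0.0758 to 0.0349 in the mean, -0.0846 to 0.0435 in C3 (lowest without C3 replicate 1), 0.0347 to 0.1830 in C6 (highest, 0.183, without scramble replicate 2) and 0.1636 to 0.2562 in C6 against C3. With the knockdown libraries as 1 group, 0 phosphatase genes were called by edgeR, against 6 at an unadjusted p under 0.05. Over all genes 80 of 13299 were called under that grouping, and DESeq2 was not run on it. With the shift of neighbouring genes removed, 0 genes were called with the same sign in both lines by edgeR (5 at an unadjusted p under 0.05). PTPRN2 could not be called in C3, since it was the median of its own window and its value there became 0. PTPN1 in C3 (-0.10) and PTPRA in C6 (-0.14) changed sign. DESeq2 called 10 in the mean, 12 in C3, 17 in C6 and 19 in C6 against C3. Over all 13299 genes it called 3519, 2608, 5287 and 5684. Replicate numbers did not pair the libraries (correlations of deviations -0.0465, 0.0644 and 0.0252). The fit with the replicate block called 11, 12, 17 and 18, with 4 of the same and 6 of opposite sign. Over all genes the block fit called 4014, 2935, 5878 and 6243. Under the block PTPN18 in C3 (adjusted p = 0.05003) and PTPN6 in C6 against C3 (adjusted p = 0.064) were not called, and PTPRJ in C3 (adjusted p = 0.026) and PTPRK in C6 against C3 (adjusted p = 0.049) were. Of 1476 member values under alternatives, 1377 kept their direction and side of the threshold or were uncalled under both, 68 lost the call, 29 gained one and 2 reversed. PTPN7, PTPRN and PTPRB had the fewest counts of the 28 genes, so depth limits them most.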
